A study of Homo sapiens with 4 samples.

Results

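Proteasome genes were followed after a short exposure of U937 cells to shikonin; U937 is an established human lymphoma line of monocytic character. The genes were those whose array annotation gave a single symbol made of PSM, a letter from A to G and a number. This gave 42 genes with 81 probe sets, of 19775 genes with a single-symbol probe set in all. Of these 42 genes, 17 belonged to the core (PSMA, PSMB) and 17 to the lid and base (PSMC, PSMD), counted with the base assembly chaperones. The other 8 were the activators, the inhibitor and the core assembly factors (PSME, PSMF, PSMG). The rule uses symbols and no measured value, but it was set with earlier results of these data known. A further 6 genes of the complex were not analysed here: PSMA6 and PSME2 had probe sets listed only with several symbols, and PSMB11, PSMC5, PSMD7 and PSMD13 had none in the annotation used.

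Treated cells had received 100 nM of the naphthoquinone shikonin for 3 h, and control cells dimethyl sulfoxide (DMSO). The labels give no other agent and no genetic change, and they give a time for shikonin only. Each group had 2 samples, each read on 1 short-oligonucleotide array with linear signal values, and the labels do not say whether the cultures were separate. The p-values therefore measure only the spread between these samples, which may be technical. All 4 arrays had median signals of 60.5 to 63.7 and a common 2% trimmed mean of about 500.1. Of 10 monocytic and myeloid markers with a probe set, 9 lay above the 40th percentile of every array, with a summed signal of 51914 to 55636, while FCGR1A lay below it on all arrays. None of the 4 T cell or 4 epithelial markers did so, and 1 of 3 B cell and 1 of 3 erythroid markers did.

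The proteasome is the barrel-shaped protease that degrades ubiquitin-tagged proteins in the cytosol and nucleus. Its core is built of alpha rings that gate the entry and beta rings that carry the catalytic sites, and it is capped by a regulatory particle whose base holds a ring of ATPases and whose lid removes the ubiquitin. In cells of the immune system, interferon-inducible beta subunits can replace the constitutive catalytic ones, and the resulting immunoproteasome favours peptides for antigen presentation. Proteasome genes are known to be transcribed in concert, with NFE2L1 (NRF1), NRF2 and the CCAAT-binding factor NF-Y among their regulators.

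After shikonin the signals of most proteasome genes were slightly higher. With each gene read by its brightest probe set, 36 of 42 members had a log2 change above 0, and the median change was 0.15, with a range of -0.09 to 0.36. Changes are differences of log2(signal + 9.94), shikonin minus DMSO. By limma's moderated test, at a threshold of 0.05 after Benjamini-Hochberg adjustment across every probe set tested, 10 members (23.8%) rose and none fell. Without the filter on dim probe sets 2 of the 10 calls were left, PSMD11 and PSMD1, so that 0 core members rose. No member lay below 0 with an unadjusted p under 0.05, while 24 lay above 0 with one. Over all 13559 genes tested, 3794 had an unadjusted p under 0.05 in either direction. After adjustment 5.00% of them rose and 6.67% fell. Their median change was 0.0039.

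Proteasome genes are bright, and brighter genes were called more often. Of the 42 members, 37 lay in the brightest 25% of the genes tested, among them all 10 that rose. In that bright set 10.6% of genes rose, 9.06% fell, 62.4% had a change above 0 and the median change was 0.05. Quantile normalization, which took the median of the bright set to 0.01, gave the members a median of 0.12 with 35 above 0, and 8 rose. The core median went from 0.13 to 0.05 and the core risers from 4 to 2. PSMB7, PSMC2 and PSMA7 lost their calls (limma adjusted p of 0.0556, 0.0617 and 0.0769), and PSMD9 gained one. It turned the sign of PSMG2, PSMA1 and PSMB9, none of which passed the test in either setting. Centring the arrays on their medians also gave 0.12 and 35 above 0, with 9 members that rose. How far brightness enters the members' changes was not tested further.

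The arrays of the groups did not overlap for 27 members in the upward direction (64.3%) and for 1, PSME4, in the downward direction. The same held for 28.2% and 27.3% of all genes, and for 43.9% and 25.4% of the bright set. The median deviation of the members from their own mean over the arrays was -0.10 and -0.06 on the DMSO arrays and 0.06 and 0.09 on the shikonin arrays (log2). Both shikonin arrays were therefore higher than both DMSO arrays in the median over the members. In bulk RNA, more cells that express a gene and more RNA per cell cannot be told apart.

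**Figure D1:**
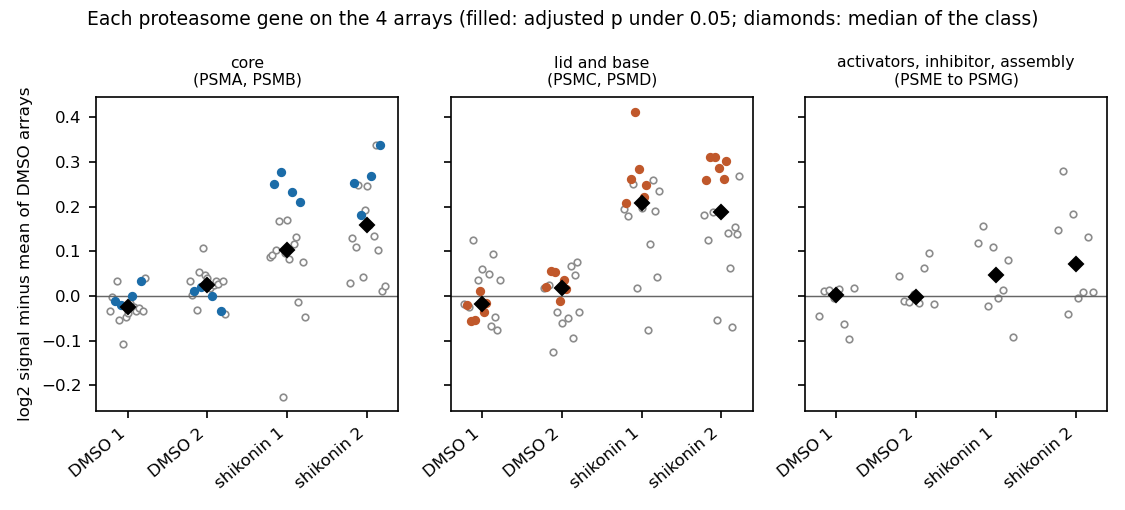
Log2 signal of each proteasome gene on each of the 4 arrays, minus the gene's mean over the DMSO arrays (vertical axis), in 3 panels for core, lid and base, and activators with the inhibitor and assembly factors. Points are genes, filled where the adjusted p was under 0.05, and diamonds are the median of the class; the 4 filled core genes and the 6 filled lid and base genes lie higher on both shikonin arrays, and the third panel has no filled point.

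Leaving out an array sets 1 array against 2, so the spread then came from the other group and the prior, and the lone array was assumed to vary alike. These fits have less power, and a lost call in them does not show a smaller change. Without DMSO 1, DMSO 2, shikonin 1 or shikonin 2, 3, 5, 2 and 1 members rose, against 10 with all arrays. PSMC6 passed only without DMSO 1 and PSMB5 only without shikonin 1 among these 5 fits. The members' median stayed at 0.13, 0.17, 0.16 and 0.13. Of the 10, PSMB3, PSMC2, PSMA7 and PSMD2 lost the call whichever array was left out. PSMD14, PSMA3 and PSMC4 lost it without DMSO 1, shikonin 1 or shikonin 2. PSMB7 lost it without DMSO 2 or shikonin 2, PSMD11 without either shikonin array, and PSMD1 without DMSO 1 or shikonin 1. In all these fits the log2 changes of the 10 stayed between 0.18 and 0.42. With a single variance prior in place of one that follows signal, no member and no gene of the array was called by limma, although 5 members and 2407 genes had an unadjusted p under 0.05.

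The lid and base recognise, deubiquitinate and unfold the substrate. By symbol this class also took in PSMD5, PSMD9 and PSMD10, chaperones that help to assemble the base. It had 6 risers among 17 members (35.3%), against 5.00% of all genes and 10.6% of the bright set. Its median of 0.19 was the highest of the 3 classes. PSMD1, a large scaffold subunit of the base, read 2691 and 2898 in DMSO against 3720 and 3469 with shikonin. It was 1.29-fold higher (log2 change 0.36, SE 0.070, limma adjusted p = 0.0139), the largest change of any member. PSMD2, the other large scaffold of the base and a docking site for ubiquitin shuttles, went from 3021 and 3086 to 3628 and 3764, which was 1.21-fold higher (0.27, SE 0.062, limma adjusted p = 0.0265). For both scaffolds the lowest shikonin array was above the highest DMSO array. PSMD4, a ubiquitin receptor of the base, overlapped between the groups by its brightest probe set (4889 and 5370 against 5554 and 5348). It did not pass, with a change of 0.09 (95% interval -0.06 to 0.23). Its next brightest probe set did not overlap (4495 and 4485 against 4790 and 5123), with a change of 0.14. A dimmer one overlapped, with a change of 0.02, and neither passed.

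All 5 ATPases measured, the ring that unfolds substrates and threads them into the core, were above DMSO on both shikonin arrays, and 2 rose. Both shikonin arrays were also above both DMSO arrays for 28.2% of all genes and 43.9% of the bright set. PSMC4 went from 2603 and 2817 to 3251 and 3361 (log2 change 0.29, SE 0.068, limma adjusted p = 0.0325). PSMC2 went from 7206 and 7406 to 8436 and 8741 (0.23, SE 0.053, limma adjusted p = 0.0278). The others, PSMC6 (0.22), PSMC1 (0.19) and PSMC3 (0.15), did not pass. PSMC6 had unequal DMSO arrays, 4570.3 and 3836, so its SE was 0.083.

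Of 6 lid subunits, 2 rose. PSMD11, a scaffold subunit of the lid, read 5281 and 5206 in DMSO against 6385 and 6394 after shikonin, with the smallest adjusted p of any member (0.28, SE 0.054, limma adjusted p = 0.0130). PSMD14, the metalloprotease that cleaves ubiquitin chains from the substrate, went from 9354 and 9845 to 11190.1 and 11498 (0.24, SE 0.053, limma adjusted p = 0.0230). The other lid subunits had log2 differences of 0.19 (PSMD12), 0.17 (PSMD6), 0.09 (PSMD8) and 0.03 (PSMD3). PSMD3 and PSMD8 overlapped between the groups, whereas PSMD12 and PSMD6 did not. None of the chaperones that help to assemble the base passed: PSMD9 read 1968 and 1870.0 against 2258 and 2313 (0.25, SE 0.070, limma adjusted p = 0.0577), while the values for PSMD5 and PSMD10 (gankyrin) were 0.09 and -0.02.

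In the core, 4 of 17 members rose (23.5%), against 5.00% of all genes and 10.6% of the bright set. The core median was 0.13. From the alpha ring, PSMA3 went from 8654 and 8799 to 10383 and 10406 (log2 change 0.25, SE 0.050, limma adjusted p = 0.0154). PSMA7 went from 6394 and 6582 to 7861 and 7351 (0.23, SE 0.058, limma adjusted p = 0.0405). This PSMA7 probe set is of the _x_at type, whose probes can also bind other transcripts. The gene's other probe set overlapped (2844 and 2376 against 2734 and 2628), with a change of 0.04. With its probe sets averaged, PSMA7 lost the call (0.14, limma adjusted p = 0.236). PSMA4, the brightest member, had a difference of 0.11 from a DMSO mean of 18242 ± 579 (SD, n = 2). PSMA5, PSMA2 and PSMA1 had differences of 0.21, 0.11 and 0.06, and none of these passed. PSMA8, a testis-specific alpha subunit, was the only dim member, at 76.9 and 90.9 in DMSO against 70.1 and 86.4 with shikonin, which overlapped. Its change of -0.09 had an interval of -0.79 to 0.61, so no change of the size seen in the others was detectable there.

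The beta subunits without a catalytic site were all higher on both shikonin arrays, as were 28.2% of all genes and 43.9% of the bright set. Of these 4 subunits, 1 rose. PSMB3 went from 7784 and 7781 to 9149 and 9381 (log2 change 0.25, SE 0.051, limma adjusted p = 0.0173). PSMB1, PSMB4 and PSMB2 had changes of 0.14, 0.13 and 0.12 with unadjusted p under 0.05, and did not pass after adjustment.

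Among the constitutive catalytic subunits, PSMB7, the trypsin-like one, rose from 8263 and 7883 to 9335 and 10206 (log2 change 0.27, SE 0.061, limma adjusted p = 0.0243). PSMB5, the chymotrypsin-like subunit and the main target of proteasome inhibitor drugs, read 3329 and 3484 in DMSO against 3731 and 4303 after shikonin. Its change of 0.23 did not pass (SE 0.078, limma adjusted p = 0.0979), although the groups did not overlap. PSMB6, the caspase-like subunit, read 4504 and 4671 in DMSO against 4546 and 4924 after shikonin, with a change of 0.04 (95% interval -0.10 to 0.19). Whether the 3 constitutive sites differ in their response was not tested.

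None of the 3 inducible catalytic subunits of the immunoproteasome passed. PSMB8, which takes the place of PSMB5, read 4695 and 4919 in DMSO against 5067 and 4843 after shikonin (log2 change 0.04, 95% interval -0.09 to 0.18). PSMB9, the counterpart of PSMB6, read 1332 and 1260.2 against 1253 and 1317 (-0.01, -0.20 to 0.17). PSMB10, the counterpart of PSMB7, read 1163 and 1228 against 1345 and 1418, with no overlap and a change of 0.21 (0.02 to 0.39; limma adjusted p = 0.159). PSMB8 and PSMB9 overlapped between the groups.

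Set against its constitutive counterpart on the same array, PSMB8 over PSMB5 had log2 ratios of 0.49 and 0.50 in DMSO against 0.44 and 0.17 with shikonin, a difference of -0.19. That difference was about as large as the spread between the shikonin arrays (SD 0.19). The ratios of PSMB9 over PSMB6 and PSMB10 over PSMB7 differed by -0.06 and -0.07, with overlapping arrays. By an exact two-sided permutation test over the 4 arrays the p-values were 0.333, 0.667 and 0.667, before any adjustment for the 3 ratios, where 0.333 is the smallest that 2 arrays against 2 can give. Probes of different genes are not comparable in level, so only the change of each ratio was read.

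The activators, the inhibitor and the assembly factors had no riser among 8 members. Of all genes 5.00% rose, and of the bright set 10.6%, so 0 in a class of 8 is near either share. The median of the class was 0.06, the lowest of the 3 classes. An unadjusted p under 0.05 was found for 2 of its 8 members, and for 3794 of all 13559 genes tested. PSME3, the nuclear PA28-gamma activator, read 4274 and 4212 in DMSO against 4733 and 5149 after shikonin (log2 change 0.22, SE 0.063, limma adjusted p = 0.0654). PSME1, a subunit of the interferon-inducible PA28 cap, read 3305 and 3519 against 3706 and 3781 (0.13, interval -0.01 to 0.28), and PSMF1 (PI31), an inhibitor of the core in the test tube, read 3759 and 3785 against 4069 and 4283 (0.15, interval 0.01 to 0.28). For PSME3, PSME1 and PSMF1 the shikonin arrays were above the DMSO arrays, as for 28.2% of all genes and 43.9% of the bright set. PSME4 (PA200), which caps proteasomes in the nucleus, had its shikonin arrays below its DMSO arrays, at 2876 and 2823 against 2803 and 2771 (-0.03, interval -0.17 to 0.11), and its 2 dimmer probe sets had differences of -0.19 and -0.06.

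The PSMG genes encode chaperones that put the alpha ring together. PSMG1 and PSMG2, which act as a pair, read 12936 and 12659 against 12754 and 12763, and 11436 and 12490.3 against 12071 and 12023. Their log2 changes were -0.004 and 0.01, with intervals of -0.11 to 0.10 and -0.12 to 0.14. These leave out the point changes of the members that rose, but those members were picked by their calls in these same arrays. Both intervals overlap that of PSMA7, 0.098 to 0.359, and whether PSMG1 and PSMG2 differ from the members that rose was not tested. PSMG3 (1589 and 1817 against 1797 and 1862; change 0.11) and PSMG4 (2255 and 2198 against 2089 and 2242; change -0.04) overlapped as well. The differences between the 3 classes were not tested, since genes are not replicates. Under quantile normalization the lid and base kept the highest median, at 0.15. Core and activators came together at 0.049 and 0.050, so the activators were no longer the lowest class.

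**Figure D2:**
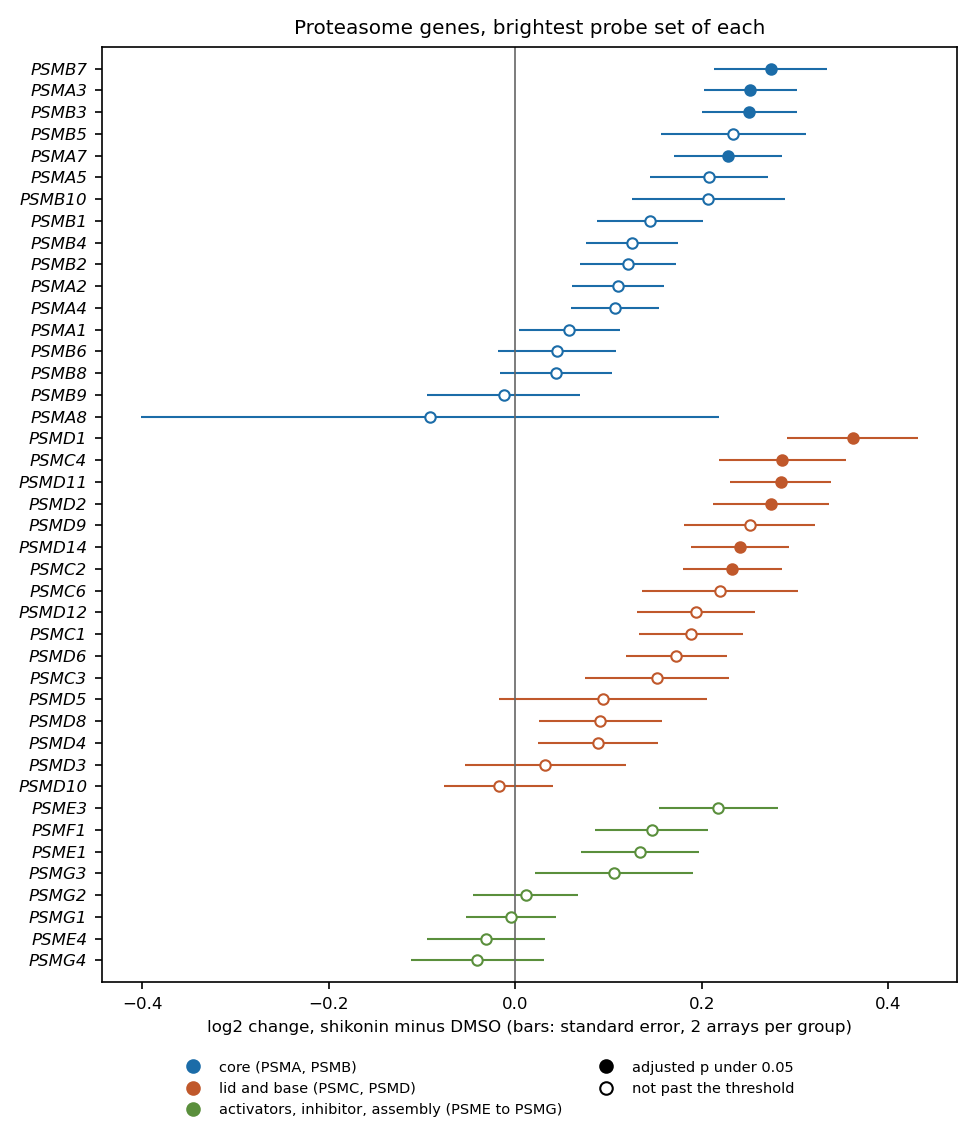
Log2 change of each of the 42 proteasome genes (shikonin minus DMSO, horizontal axis) with its standard error, sorted within core, lid and base, and activators with assembly factors. Filled points mark the 10 genes with an adjusted p under 0.05; PSMD1 lies farthest to the right at 0.36, and PSMG1 and PSMG2 lie near 0.

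**Figure D3:**
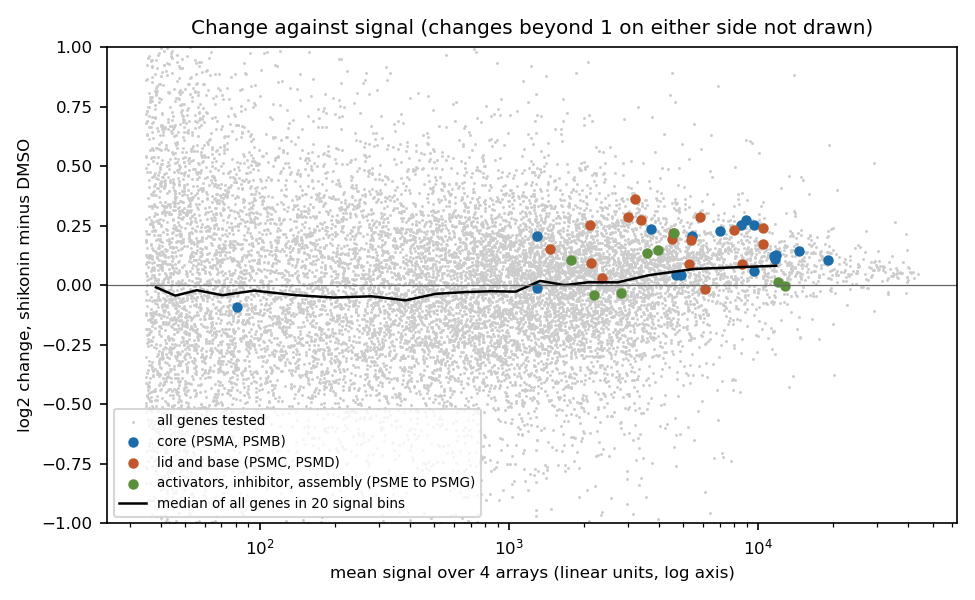
Log2 change (shikonin minus DMSO, vertical axis) against mean signal over the 4 arrays (log axis) for all genes tested in grey and for proteasome genes in colour by class, with the median of all genes in 20 signal bins as a line. Changes beyond 1 on either side are not drawn; 15 of 17 core genes and 16 of 17 lid and base genes lie above 0.

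RefSeq promoter sequences on GRCh38.p14 were given for 36 of the 42 members, at 43 start sites, and the 250 bases before each start were searched on both strands. The core of the antioxidant response element, TGACNNNGC, where NRF1 and NRF2 bind, was found at 11 of 43 start sites (25.6%), against 10.9% of 35093 start sites of all genes. It was found at 1 of the 9 start sites of members that rose (11.1%) and at 10 of the 34 of members that did not pass (29.4%). By class, 3 of 17 core sites, 4 of 17 lid and base sites and 4 of 9 activator and assembly sites held it. CCAAT, the NF-Y box, was found at 16 of 43 (37.2%), at 4 of the 9 of members that rose, and at 32.0% of all start sites. A heat shock element was found at 0 of 43 and at 0.442% of all. A match is a string of letters in this window and no evidence of binding.

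The following promoter stretches are shown because PSMB3 was, among the members with a promoter given, the only riser with the antioxidant response core, PSMA3, PSMC2 and PSMD14 rose and held CCAAT, and PSMD9 and PSMG2 held the antioxidant response core without passing. Each is written 5′ to 3′ on the strand of the gene and ends at the base before the start, and capitals mark TGACNNNGC and CCAAT on either strand. They lie at chr17:38752491-38752740 (plus strand), chr14:58244593-58244842 (plus), chr7:103347393-103347642 (plus), chr2:161308175-161308424 (plus), chr12:121888540-121888789 (plus) and chr18:12658488-12658737 (plus).
PSMB3: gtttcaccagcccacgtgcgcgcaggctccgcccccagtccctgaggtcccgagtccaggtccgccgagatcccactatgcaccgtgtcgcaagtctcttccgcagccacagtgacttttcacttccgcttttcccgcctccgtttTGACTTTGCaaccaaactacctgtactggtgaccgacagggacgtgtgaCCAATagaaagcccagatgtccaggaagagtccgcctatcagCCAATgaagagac
PSMA3: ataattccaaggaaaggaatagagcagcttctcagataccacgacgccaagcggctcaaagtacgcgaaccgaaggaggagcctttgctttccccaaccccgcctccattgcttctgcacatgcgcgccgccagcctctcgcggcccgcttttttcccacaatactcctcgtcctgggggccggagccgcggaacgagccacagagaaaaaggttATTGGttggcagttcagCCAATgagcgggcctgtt
PSMC2: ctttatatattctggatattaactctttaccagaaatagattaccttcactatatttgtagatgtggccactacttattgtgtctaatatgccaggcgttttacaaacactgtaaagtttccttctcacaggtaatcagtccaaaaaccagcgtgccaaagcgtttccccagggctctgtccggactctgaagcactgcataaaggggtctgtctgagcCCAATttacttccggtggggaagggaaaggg
PSMD14: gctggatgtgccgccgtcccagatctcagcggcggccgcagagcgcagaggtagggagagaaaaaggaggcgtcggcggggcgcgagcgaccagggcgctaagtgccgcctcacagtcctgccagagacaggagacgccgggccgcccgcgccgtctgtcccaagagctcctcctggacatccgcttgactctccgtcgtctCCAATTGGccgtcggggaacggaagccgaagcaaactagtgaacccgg
PSMD9: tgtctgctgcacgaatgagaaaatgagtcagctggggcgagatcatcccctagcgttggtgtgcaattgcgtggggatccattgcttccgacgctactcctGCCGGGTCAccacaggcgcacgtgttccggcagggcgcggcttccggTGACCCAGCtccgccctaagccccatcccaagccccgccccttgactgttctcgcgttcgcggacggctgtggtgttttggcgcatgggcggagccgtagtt
PSMG2: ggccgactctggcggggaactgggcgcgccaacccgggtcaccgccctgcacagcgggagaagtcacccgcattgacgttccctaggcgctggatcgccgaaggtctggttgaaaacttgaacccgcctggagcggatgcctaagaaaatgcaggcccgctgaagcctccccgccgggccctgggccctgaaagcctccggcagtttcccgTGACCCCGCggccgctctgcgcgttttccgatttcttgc
In PSMB3 the antioxidant response core lies 104 to 96 bases before the start and CCAAT boxes lie 55 to 51 and 13 to 9 bases before it. In PSMD14 a CCAAT on each strand overlaps between bases 48 and 41, and PSMD9 holds the antioxidant response core on both strands, at 149 to 141 and at 102 to 94. PSMG2, with the core at 39 to 31, had a log2 change of 0.01, against 0.25 for both PSMB3 and PSMD9. Over the other members with this core, changes ran from -0.03 (PSME4) to 0.19 (PSMD12), and none passed.

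Several members were read by more than 1 probe set, that is, by several groups of probes along the transcript. Of 77 member probe sets tested, 64 lay above 0, 14 rose and none fell, where 3.92% of all probe sets rose and 5.27% fell. Of 21 members with several tested probe sets, 17 had all of them on one side of 0. PSMA3, PSMB2, PSMD6 and PSMD10 had probe sets on both sides. In PSMA3 and PSMD6 the probe sets below 0 were dim (signals of 55.6 to 81.5 and of 30.9 to 44.8). The brightest PSMD6 probe set read 9482 and 10123 against 11186 and 10909. In PSMD10 the brightest probe set overlapped (6269.8 and 5968 against 6197 and 5890.5), and the second read 3403 and 3256 against 3884 and 3696, a change of 0.19 (limma adjusted p = 0.106).

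The largest change of any tested proteasome probe set was in PSMB2, a beta subunit without a catalytic site. Its second brightest probe set, of the _x_at type, read 504 and 452 in DMSO against 1112 and 1209 after shikonin, 2.40-fold higher (log2 change 1.26, SE 0.105, limma adjusted p = 1.95e-04), and kept the call without any 1 array. The brightest probe set of the same gene read 10941 and 11199 against 11731 and 12352, a difference of 0.12, and the other two had differences of -0.08 and 0.15. The suffix _x_at marks probes that can also bind other transcripts, so which transcript gave this rise is uncertain. A dim probe set of PSMB7 read 76.4 and 74.9 against 144 and 170.2, 1.95-fold higher (adjusted p = 0.0461 in limma), and lost the call without any 1 array. Second probe sets also rose in PSMC2 (0.33) and in PSMD12 (0.33, limma adjusted p = 0.0195, whose brightest probe set did not pass), and both lost the call without any 1 array. These probe sets were singled out after their values were seen.

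**Figure D4:**
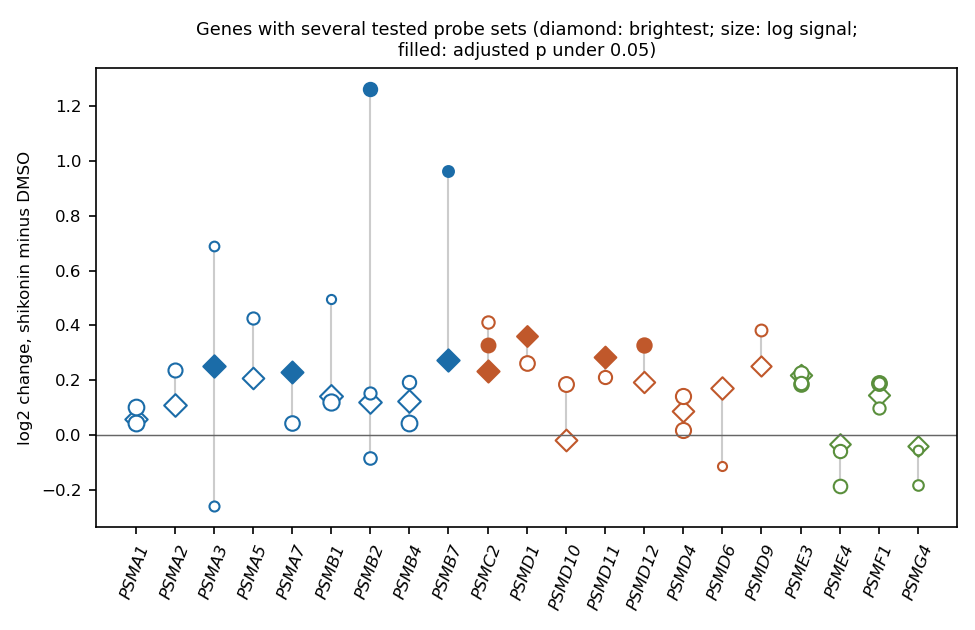
Log2 change (shikonin minus DMSO) of every tested probe set of the 21 proteasome genes with several, with the brightest as a diamond, larger points for brighter probe sets and filled points for an adjusted p under 0.05. One PSMB2 probe set stands at 1.26 above the other PSMB2 probe sets, which lie between -0.08 and 0.15.

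Other genes of the pathway were read from 5 lists with 52 genes, of which 44 were tested. Of these 44 genes, 6 rose and 1 fell, and the median change was 0.07. Over all genes tested, 5.00% rose and 6.67% fell, and in the bright set 10.6% rose and 9.06% fell. The median change of the bright set was 0.05. Whether any list differs from these shares was not tested. Among 12 subunits and cofactors of the proteasome with other symbols, 2 rose. UBE3C, a ligase that extends ubiquitin chains at the proteasome, went from 1583 and 1595 to 2270.1 and 2006 (log2 change 0.42, SE 0.082, limma adjusted p = 0.0137), and lost the call without shikonin 1. USP14, a deubiquitinase on the base, went from 6879 and 6930 to 7984 and 7851 (0.20, limma adjusted p = 0.0474), and lost the call without any 1 array.

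Shuttles and unfoldases bring tagged proteins to the proteasome. Of 14 tested, 4 rose, where 5.00% of all genes and 10.6% of the bright set did. ZFAND2A, a stress-inducible proteasome-associated zinc finger protein, went from 640.3 and 748 to 2919 and 3059, 4.27-fold higher (log2 change 2.09, SE 0.093, limma adjusted p = 3.98e-06), and kept the call without any 1 array. VCP (p97), the ATPase that extracts tagged proteins from membranes and complexes, went from 4343 and 4436 to 5296 and 5250.1 (0.26, SE 0.056, limma adjusted p = 0.0212), and its other probe set rose by 0.46. Its cofactors NSFL1C (p47) and UFD1 rose by 0.26 and 0.23. VCP, NSFL1C and UFD1 lost the call without any 1 array (adjusted p of 0.0519 to 0.189), and the 5 other probe sets of NSFL1C ran from -0.50 to 0.78.

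Of 6 tested genes that control proteasome gene expression, 1 fell and none rose by its brightest probe set, while 1 of 4 dimmer NFYA probe sets rose. The gene that fell was NGLY1, the glycanase that processes NRF1, which went from 5398 and 5665 to 4178 and 3843 (log2 change -0.46, SE 0.065, limma adjusted p = 0.00311). A second, dimmer NGLY1 probe set had a change of 0.30 that missed the threshold. NFE2L1, the gene of NRF1, named here for its role, had a change of 0.12 that did not pass. None of 3 tested ubiquitin and activating enzyme genes passed, with UBB at 0.17 (limma adjusted p = 0.104) and UBA6 at -0.18, though 1 of 5 dimmer UBA6 probe sets fell. None of 9 tested peptide loading partners of the immunoproteasome passed, with ERAP1 at -0.18 and ERAP2 at 1.09 from a dim signal (49.7 and 60.3 in DMSO, 120.2 and 135 after shikonin; limma adjusted p = 0.0538), and their median was -0.02.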

How the data were processed

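Total RNA of the 4 samples was labelled with biotin by one-cycle 3′ amplification for Affymetrix U133 Plus 2.0 arrays, per the labels' protocols. The authors' deposited values are probe set intensity on a linear scale; the sources used here do not name the software. All arrays share a trimmed mean, so changes are relative to the other probe sets.

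Groups came from the labelled treatment. Intensities were taken as log2(signal + 9.94), the 20th percentile of all values. Leaving out 62 controls and the dimmest 40% by mean signal kept 32768 of 54675 probe sets. All 42 members and 77 of their 81 probe sets passed this filter. Differences were tested two-sided with limma 3.58.1 in R 4.3.3 (lmFit, eBayes with a variance trend; 2 residual and 7.1 prior degrees of freedom), adjusted by Benjamini-Hochberg across every probe set kept. The number of arrays limits the precision. The procedure was tested on simulated data, with changes given to genes drawn from all genes tested, dim ones included. It called 42.4% of the log2 changes of 0.5 and 67.0% of those of 1, in either direction, with 9 false calls. Smaller changes, such as those of the members, were not simulated.

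Genes were read by their brightest single-symbol probe set; all 42 symbols matched the RefSeq gene table. The rule for named genes gave array values for members that passed and for selected members of each role, and for up to 4 called genes (2 where none was called) of each other list. The members and lists were chosen with earlier results of these data known. Alternatives were other pseudocounts, filters, normalizations, probe set choices and variance priors, a replicate block and leaving out each array.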

Additional observations from a re-analysis of the deposited data

How the results depend on the processing

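No member was called lower under any of the 14 alternatives. The members called higher numbered 10 in the reported fit. Without a filter on dim probe sets they were 2 (core 0, lid and base 2), with 3 other pathway genes and 350 genes of the array called higher. A single variance prior gave 0 for every count, against 678 genes higher and 905 lower in the reported fit. With the dimmest 60% removed, 1 activator, PSME3, was called higher. Quantile normalization left 2 core members higher and put 3 other pathway genes lower, against 4 and 1. Averaging the probe sets of a gene, or leaving out _x_at and _s_at probe sets, put 0 other pathway genes lower. In the latter, NGLY1 turned to 0.30 because its other probe set took its place. Averaging called 11 members higher, where PSMA3 and PSMA7 lost the call and PSMD12, PSMA5 and PSMB2 gained it. Of the 42 members, 18 were read by an _x_at or _s_at probe set, among them 4 of the 10 called. Without such probe sets 32 members were tested and 7 called higher. PSMD11 lost its call, and PSMA7 and PSMD1 had no probe set left. Leaving out each array gave 1 to 5 members higher (core 0 to 2, lid and base 0 to 4), a members' median of 0.13 to 0.17, 2 to 3 other pathway genes higher, and 297 to 441 genes higher and 590.0 to 667 lower over the array. The labels do not say whether the replicate numbers pair the samples. Deviations of same-numbered arrays from their group means had a correlation of 0.016. With 2 arrays per group this is a single value, which cannot settle whether they were paired. With the replicate block, 20 members were called higher (core 8, lid and base 11, activators 1), 15 other pathway genes higher and 2 lower, and 1254 genes higher.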

Other observations

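Genes whose symbols begin like a member but that encode other products were read as well. PSMB8-AS1, a non-coding RNA whose symbol marks it as antisense to PSMB8, read 1757 and 1631 in DMSO and 881 and 838 after shikonin, and fell by 0.97 on the log2 scale (SE 0.085, limma adjusted p = 2.70e-04). It kept the call without any 1 array, and it was chosen after its value was seen. The call was lost when its probe sets were averaged (-0.38, limma adjusted p = 0.134) or with a single variance prior (0.147), and its second probe set had a change of 0.20. PSMB8 itself had a change of 0.04. Whether the probes tell the strands apart was not tested. PSMA3-AS1 (0.09), PSMD6-AS2 (0.06), PSMG3-AS1 (0.18), PSMC3IP (0.37) and PSME3IP1 (0.09) did not pass by their brightest probe sets. The other PSMC3IP probe set rose by 0.97.

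In 5 genes of the other pathway lists that did not pass, 1 dimmer probe set did. It was higher in POMP, NFYA and UBQLN1, and lower in UBA6 and ZFAND5.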
